A study of Mus musculus with 4 samples.

Results

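Macrophages that transcribed Mmp12, the gene of macrophage elastase, were examined in mammary tumors of 4 mice. A barcode was counted as such a cell when it held at least 2000 unique molecular identifiers (UMIs, each standing for 1 captured transcript) with at most 20% of them from mitochondrial genes. Per 10000 UMIs, the complement genes C1qa, C1qb and C1qc had to sum to at least 10 and Mmp12 to reach at least 5, while the resident macrophage genes Folr2, Cd163, Lyve1 and F13a1 and the epithelial genes Epcam, Krt8 and Krt18 each had to sum to less than 5, and Cd3e had to be 0. The rule found 724 cells among 20892 barcodes within the limits on depth and mitochondrial share, here called Mmp12 macrophages. The 2822 cells under the same limits with Mmp12 below 1 per 10000 UMIs are called Mmp12-low macrophages.

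The tumors came from MMTV-PyMT mice, in which the mouse mammary tumor virus promoter drives the polyoma middle T oncogene in mammary epithelium. All 4 mice carried Frmd8 alleles with exons between loxP sites (Frmd8 fl/fl) on a C57BL/6 background and were at endpoint, at 17 to 18 weeks. Replicates 1 and 3 were MMTV-Cre- mice, which lack the recombinase, and replicates 2 and 4 were MMTV-Cre+ mice, in which Cre is driven by the same promoter. This promoter is used to direct Cre to the mammary epithelium, and whether Cre was active in macrophages was not tested. All 4 mice share the oncogene. In the littermates of the study a yellow coat marked Cre+ and a black coat Cre-. Cells sorted by flow cytometry were sequenced with the 10x Genomics 3' v3 chemistry, 1 library per replicate. Each replicate is taken here as 1 mouse. The libraries of the Cre- mice held 122658098 and 126843597 UMIs and those of the Cre+ mice 112729231 and 157662955. Cre+ replicate 4 stood apart in form, since its file lists 2582424 barcodes, empty droplets included, against 7020, 8017 and 7411 filtered barcodes in the other libraries. Library pairs shared 8 to 14 barcode sequences of at least 2000 UMIs, and 0 of the Mmp12 macrophages had a barcode shared with another library.

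Macrophage elastase is a secreted metalloproteinase that cleaves elastin and other matrix proteins, and it is made mainly by macrophages. Tumor macrophages are usually described along axes that include a resident, perivascular type marked by Lyve1 and Folr2, inflammatory types that secrete cytokines, and lipid-associated types that carry the lipid receptor TREM2. Among the genes known for control through the AP-1 factors of the Fos and Jun families are several matrix metalloproteinases.

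Promoter sequences are shown first because a metalloproteinase chose these cells and another one, Mmp13, was among the genes that differed most in them. They are the 250 bases before annotated transcription starts, from RefSeq on mouse build GRCm38.p6, written in the direction of transcription, with capitals for matches to the AP-1 motif TGANTCA, where N is any base, on either strand. The Mmp12 window shown lies at chr9:7347124-7347373 on the + strand, with its match beginning 44 bases before the start. The other RefSeq window of Mmp12, at chr9:7344147-7344396, belongs to a start further upstream and held no match. Which start these cells used was not tested. The Mmp13 window lies at chr9:7272264-7272513 on the + strand, with its match 35 bases before the start. The Il1rn window, one of 3 for the gene of the interleukin 1 receptor antagonist, lies at chr2:24336610-24336859 on the + strand, with its match 141 bases before the start, and the other 2 Il1rn windows held no match. These 3 are shown because they hold a match. The windows of Il7r, Cd36, Ccl8, Cxcl2 and Adam8 held none.
Mmp12: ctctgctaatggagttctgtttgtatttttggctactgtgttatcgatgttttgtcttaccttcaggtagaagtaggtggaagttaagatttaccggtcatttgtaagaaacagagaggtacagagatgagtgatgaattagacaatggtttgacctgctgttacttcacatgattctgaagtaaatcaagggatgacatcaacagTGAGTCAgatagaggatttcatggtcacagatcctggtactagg
Mmp13: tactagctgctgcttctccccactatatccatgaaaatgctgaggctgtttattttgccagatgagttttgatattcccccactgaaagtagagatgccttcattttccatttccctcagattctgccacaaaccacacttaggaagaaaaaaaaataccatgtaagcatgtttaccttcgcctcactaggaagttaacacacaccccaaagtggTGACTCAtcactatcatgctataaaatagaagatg
Il1rn: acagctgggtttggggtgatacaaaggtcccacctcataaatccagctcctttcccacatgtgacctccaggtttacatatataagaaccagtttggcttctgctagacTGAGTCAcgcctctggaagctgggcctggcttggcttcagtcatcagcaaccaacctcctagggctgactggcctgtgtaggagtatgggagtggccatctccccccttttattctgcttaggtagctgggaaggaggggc

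The rule used Mmp12 itself, so its level is given as a description. Values of the mice are given in the order of replicates 1, 3, 2 and 4, with both Cre- mice first. With UMIs summed over the cells of each library, Mmp12 macrophages held 1890, 2113, 2752 and 2337 CPM (counts per 1000000 UMIs) of Mmp12, and Mmp12-low macrophages held 6.53, 4.58, 6.05 and 12.7 CPM. The median Mmp12 macrophage held 13.2, 11.9, 13.9 and 13.7 Mmp12 UMIs per 10000. The highest cell of each library reached 264, 88.8, 164 and 246 per 10000. At the threshold of 5 per 10000, 7, 8, 11 and 40 cells lay between 5 and 6, and 14, 10, 16 and 69 macrophages lay between 4 and 5 and were left out. Few memberships rested on 2 Mmp12 UMIs, 4, 1, 0 and 4 cells per library, and 0 on 1 UMI.

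Mmp12 transcripts outside macrophages were rare in 3 libraries and more frequent in Cre+ replicate 4. Of T cells, defined by a Cd3e UMI and little C1q, 0.837% of 239 held an Mmp12 UMI in replicate 1, as did 0 of 255 and 0 of 207 in replicates 3 and 2. In Cre+ replicate 4 it was 5.65% of 248, with an exact 95% binomial interval of 3.12% to 9.29%. Among epithelial cells the shares were 1.24%, 1.45%, 1.55% and 8.54%. Barcodes of up to 100 UMIs in Cre+ replicate 4, which are mostly empty droplets, held 215 CPM of Mmp12. At an equal depth of 2000 UMIs per cell, 0.806% of T cells in that library held an Mmp12 UMI and 91.1% of the Mmp12 macrophages did. These binomial intervals cover counting error only.

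Gated macrophages are all cells within the limits other than that on Mmp12. Of them, the Mmp12 macrophages made up 14.3% (89 of 621, exact 95% binomial interval 11.7% to 17.3%) and 7.64% (63 of 825, 5.92% to 9.66%) in the Cre- mice. The Cre+ mice had 8.54% (75 of 878, 6.78% to 10.6%) and 28.0% (497 of 1778, 25.9% to 30.1%). Cre+ replicate 4 was highest, and Cre+ replicate 2 lay between the Cre- mice, so the genotypes overlapped. Cre+ mice averaged 18.2% ± 13.7 (SD, n = 2), which exceeded the 11.0% ± 4.73 (SD, n = 2) of Cre- mice by 7.26 percentage points (two-sided exact permutation test, p = 0.667, where the smallest p that this design allows is 0.333). Without Cre+ replicate 4 the difference was -2.44 percentage points. The library with the high share was also the one with unfiltered barcodes and with the highest share of T cells holding an Mmp12 UMI, and their part in the share was not tested. Restricting that library to barcodes above 10978 UMIs, an estimate of its called cells, left 388 of 1322 macrophages, or 29.3%.

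**Figure D1:**
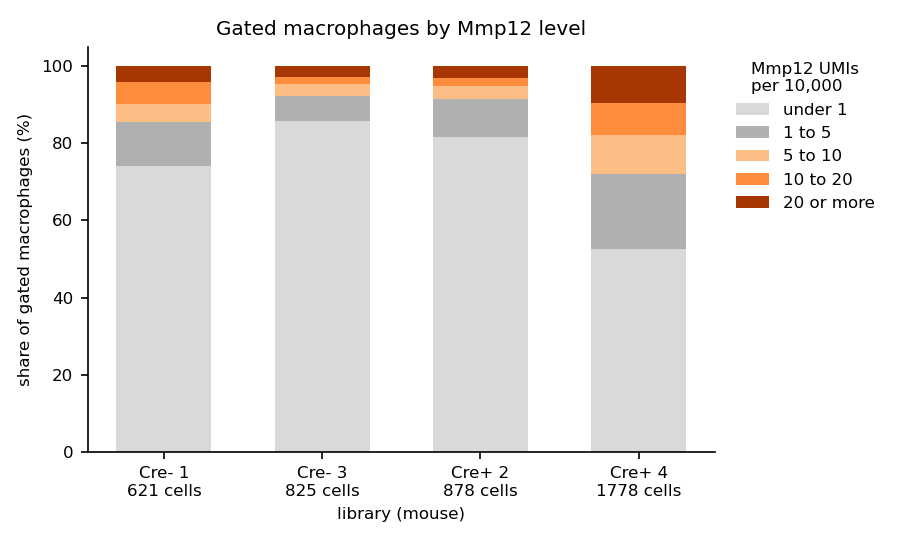
Share of gated macrophages (y axis, percent) of each mouse (x axis, number of cells below) by the number of Mmp12 UMIs per 10000 UMIs, with the 3 orange classes together forming the Mmp12 macrophages. These classes hold 28.0% of the cells in Cre+ replicate 4 and 7.64% to 14.3% in the other mice.

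The cells carried macrophage transcripts. C1qa, which the rule used, stood at 4702, 4096, 4837 and 5345 CPM in Mmp12 macrophages. Lyz2, the gene of lysozyme, stood at 7991, 4915, 6761 and 4400 CPM, Cd68 at 657, 840, 783 and 736 CPM, and Csf1r, the receptor for macrophage colony-stimulating factor, at 590, 475, 648 and 485 CPM. Their levels in Mmp12-low macrophages were of the same order, and none of these 3 genes passed the test below. Trem2 was detected in all libraries, at 490, 453, 601 and 459 CPM in Mmp12 macrophages and 695, 627, 561 and 430 CPM in Mmp12-low macrophages. Of the label's markers, Mmp12 and C1qa were used by the rule, so their presence was fixed by it. The ranges of Trem2, which the rule did not use, overlapped between the states. Its log2 fold change of -0.13 ± 0.13 (SE) did not pass the test (edgeR, adjusted p = 0.710). Trem2 was lower in the Mmp12 macrophages of both Cre- mice and slightly higher in those of both Cre+ mice.

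The first comparison asked which other genes accompanied Mmp12. UMIs were summed per mouse and state, giving 4 sums of Mmp12 macrophages (1268498, 1368596, 1485041 and 10764289 UMIs) and 4 of Mmp12-low macrophages (7196538 to 18925749 UMIs), and the states were compared within mice with the quasi-likelihood test of edgeR, the genes of the rule being left out. Of 11324 genes tested, 261 (2.3%) passed an adjusted p of 0.05, of which 178 (1.57%) were higher and 83 (0.733%) lower in Mmp12 macrophages. The median log2 fold change over all genes was -0.01. The genes that rose included Dcstamp, Mmp13, Lpl, Cd36, Il1a, Il1rn and Slc2a1, and those that fell included Maf, Ccl8 and C4b. All genes come from the same UMIs that placed each cell, so a cell's depth enters both. Leaving out 1 mouse at a time, in the order of the values above, gave 291, 81, 42 and 225 called genes, so replicates 3 and 2 weighed most, and 15 passed when the states were not compared within mice. Without Cre+ replicate 4 more genes fell than rose, 128 against 97, and 129 of the 225 were among the 261. Of 60 called genes named in the text, 5 passed in each of 14 alternative settings, namely Dcstamp, C4b, Ccl8, Rapsn and Maf. Median UMIs per cell were 11381, 18105, 17807 and 20540 in Mmp12 macrophages and 13091, 19443, 13509 and 18440 in Mmp12-low macrophages.

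Dcstamp, which encodes a membrane protein needed for the fusion of osteoclasts and macrophage giant cells, had the highest fold change among the called genes with at least 20 CPM that moved the same way in all mice. It stood at 78.0, 97.9, 45.1 and 75.0 CPM in Mmp12 macrophages and at 8.75, 12.3, 7.30 and 15.5 CPM in Mmp12-low macrophages. The states did not overlap, and the fold was 6.90 (log2 2.79 ± 0.16 SE, edgeR adjusted p = 0.000937, higher in 4 of 4 mice). Atp6v0d2, a subunit of the proton pump that acidifies lysosomes and is abundant in osteoclasts, stood at 29.2, 40.2, 90.9 and 23.3 CPM against 22.9, 4.03, 4.80 and 3.91. Cre- replicate 1 was nearly level between the states, and the log2 fold change was 2.70 ± 0.54 (edgeR adjusted p = 0.0463). Of the 17 lysosomal genes listed, Atp6v0d2 and the acid phosphatase gene Acp5 (log2 0.60, edgeR adjusted p = 0.0457) passed, with a list median of 0.15. Ctss, the most abundant of them, stood at 4572, 3528, 4921 and 4153 CPM against 4012, 3682, 5264 and 3867 and did not pass.

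Among 14 tested genes of matrix proteases and their inhibitors, 5 rose and 1 fell, and the list median was 0.30. Mmp13, an interstitial collagenase, stood at 125, 140, 175 and 327 CPM in Mmp12 macrophages and at 65.0, 29.3, 40.7 and 59.1 CPM in Mmp12-low macrophages. All Mmp12 sums lay above all Mmp12-low sums, with a log2 fold change of 2.04 ± 0.24 (edgeR adjusted p = 0.00818). Plau, the gene of urokinase, which activates plasminogen, stood at 307, 312, 210 and 168 CPM against 145, 139, 120 and 92.0, a log2 fold change of 1.05 ± 0.10 (edgeR adjusted p = 0.00464). The urokinase receptor gene Plaur rose by 0.67, the neutrophil collagenase gene Mmp8 by 2.70 from at most 2.22 CPM in Mmp12-low macrophages, and the disintegrin gene Adam8 by 1.52 on the log2 scale. The metalloproteinase inhibitor gene Timp1 fell by 1.07. Mmp14, a membrane-bound metalloproteinase, stood at 169, 172, 145 and 126 CPM against 189, 177, 161 and 97.7 (edgeR adjusted p = 0.848). Mmp10, a stromelysin named after its values were seen, was below the filter and held 39 of its 64 UMIs over all 8 sums in Mmp12 macrophages of Cre- replicate 3.

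**Figure D2:**
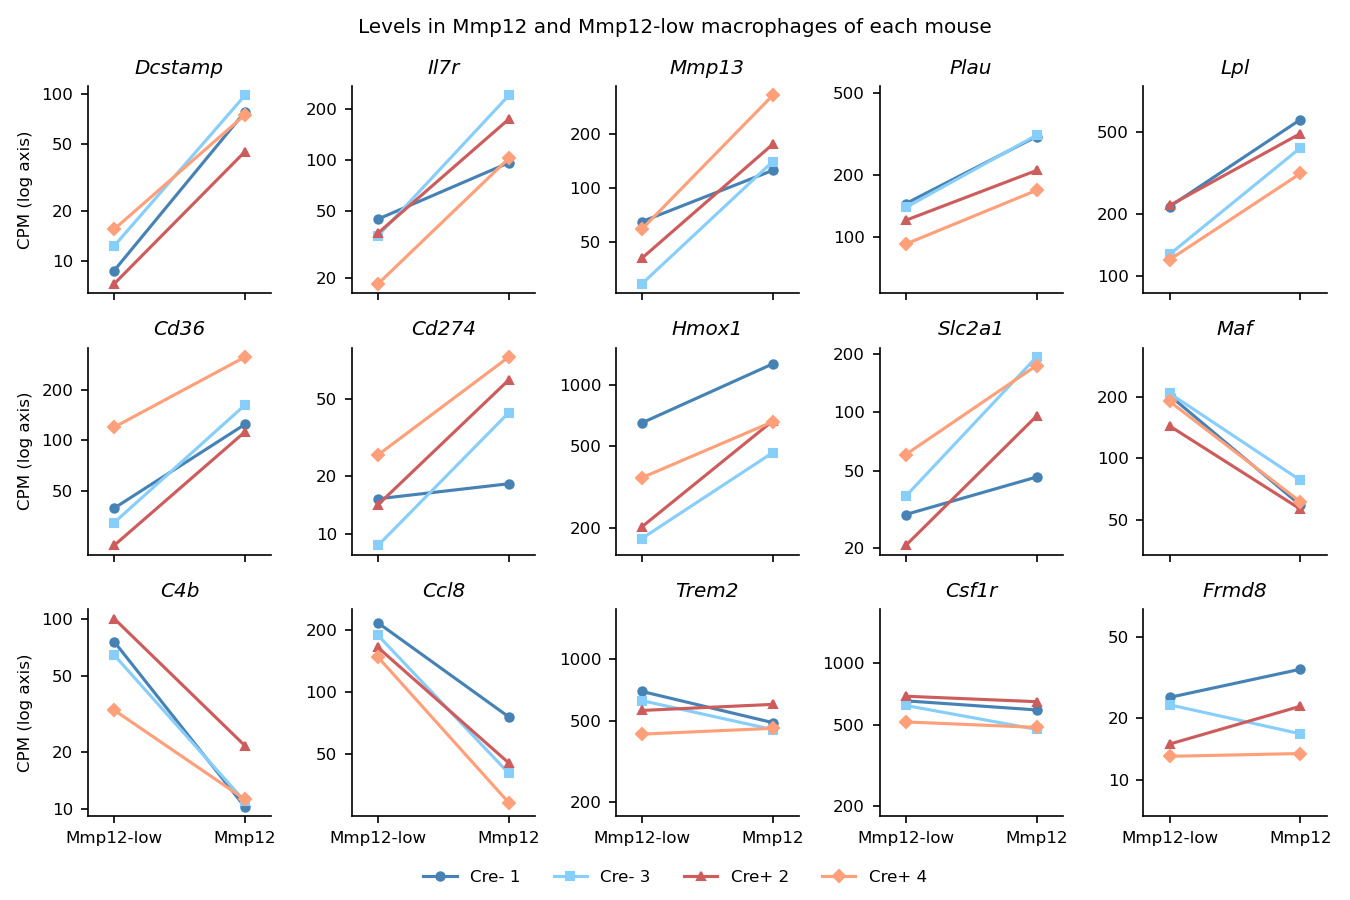
CPM on log axes for 15 genes in Mmp12-low and Mmp12 macrophages, with 1 line per mouse. Lines from Dcstamp to Slc2a1 rise and those of Maf, C4b and Ccl8 fall in all 4 mice, while Trem2 and Frmd8 differ in direction between mice and Csf1r is slightly lower in each, none of the 3 passing the test.

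Of 17 lipid-associated macrophage genes, 4 rose and 0 fell, with a list median of 0.58. Lpl, the gene of lipoprotein lipase, stood at 578, 421, 494 and 316 CPM against 218, 127, 220 and 120, with no overlap (log2 1.48 ± 0.11, edgeR adjusted p = 0.00165). Cd36, a receptor for fatty acids and oxidized lipoproteins, stood at 125, 162, 112 and 313 CPM against 39.6, 32.5, 23.8 and 120. It rose within each mouse by a log2 fold change of 1.94 ± 0.17 (edgeR adjusted p = 0.00409), but Mmp12-low macrophages of Cre+ replicate 4 held more of it than Mmp12 macrophages of Cre+ replicate 2. Lgals3, encoding galectin 3, stood between 2763 and 5655 CPM in Mmp12 macrophages and between 1502 and 2079 CPM in Mmp12-low macrophages, a log2 fold change of 1.23, and Lipa, the lysosomal acid lipase, rose by 0.57. Apoe, the most abundant gene of the list, stood at 22257, 11187, 22671 and 16175 CPM against 22143, 24746, 35062 and 17700 and did not pass (edgeR adjusted p = 0.254). Spp1 and Gpnmb, genes often used to mark such cells, did not pass either, with log2 fold changes of 1.02 and 1.44 and Cre- replicate 1 lower in Mmp12 macrophages for both. Without that mouse both passed, with log2 fold changes of 1.64 for Spp1 (edgeR adjusted p = 0.0399) and 2.12 for Gpnmb (edgeR adjusted p = 0.0106). Over the other settings Spp1 went as low as 0.020, under the study's limits on UMIs and genes. The transcription factor gene Pparg, which controls lipid genes, rose by 0.87 and stood between 12.6 and 27.6 CPM in Mmp12 macrophages. It passed in 7 of the 14 alternative settings, over which its log2 fold change went from 0.73 to 0.97.

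Of 20 cytokine and chemokine genes listed, 6 rose (Il1a, Tnf, Cxcl1, Cxcl2, Ccl6 and Ccl9) and 0 fell, with a list median of 0.50. Without the filter on low counts 10 rose and 2 fell, and under the study's limits on UMIs and genes 9 rose and 1 fell. After thinning to 2000 UMIs, 10 of 18 rose and 2 fell. Il1rn and Ccl8 are counted in other lists and Cxcl3 in none. Il1a, which encodes interleukin 1 alpha, stood at 561, 873, 565 and 675 CPM against 208, 340, 372 and 363 (log2 1.13 ± 0.15, edgeR adjusted p = 0.0108). Its antagonist gene Il1rn stood at 201, 289, 184 and 143 CPM against 91.0, 135, 80.5 and 67.5 (log2 1.19 ± 0.08, edgeR adjusted p = 0.00165). The neutrophil-attracting chemokine genes Cxcl1 and Cxcl2 rose by 0.98 and 0.95, the macrophage chemokine genes Ccl6 and Ccl9 by 1.24 and 0.96, and Tnf by 0.87 on the log2 scale. Cxcl3, of the same neutrophil-attracting family, had a log2 fold change of 1.87 (edgeR adjusted p = 0.0445) and passed in 7 of the 14 alternative settings, over which the log2 fold change went from 1.11 to 2.49. Slc7a2, which imports arginine, had a log2 fold change of 1.86 (edgeR adjusted p = 0.0467) and passed in 8 of them. Il1b was abundant, at 4339, 3693, 4503 and 2236 CPM against 2706, 2728, 4124 and 1964, and was higher within each mouse, but did not pass (log2 0.42, edgeR adjusted p = 0.0825). Ccl4 did not pass (log2 0.57, edgeR adjusted p = 0.192). Il7r, the gene of the interleukin 7 receptor alpha chain, which is best known from lymphocytes, stood at 96.2, 241, 174 and 102 CPM against 44.6, 35.5, 36.9 and 18.4. The states did not overlap (log2 2.25 ± 0.25, edgeR adjusted p = 0.00672). The T cell receptor genes Cd3d, Cd3g, Trac and Trbc2 each stood at 1.46 CPM or less in every sum of Mmp12 macrophages. As the rule required Cd3e to be 0, their low levels were partly fixed by it, and the source of the Il7r UMIs was not tested.

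Cd274, which encodes the checkpoint ligand PD-L1, stood at 18.1, 42.4, 62.6 and 82.3 CPM against 15.1, 8.68, 14.1 and 25.6. It rose by 1.76 ± 0.28 on the log2 scale (edgeR adjusted p = 0.0209), with the smallest difference in Cre- replicate 1. Tnfrsf9, the costimulatory receptor 4-1BB, was named after its values were seen for the size of its change, from at most 4.07 CPM to 2.37, 59.2, 25.6 and 41.4 CPM (log2 4.06 ± 0.40, edgeR adjusted p = 0.00485). Cre- replicate 1 was far below the other mice and rested on 3 UMIs. With Cd274 and Il1rn, 2 of 11 tested genes of alternative activation and checkpoint control rose, with a median of 0.33. Of 8 genes of MHC class II presentation, 0 passed by edgeR or DESeq2, with 4 at an unadjusted p under 0.05, while 2 rose under the study's limits on UMIs and genes, Cd74 and H2-Ab1. Cd74, the invariant chain, stood at 19089, 15716, 21094 and 13424 CPM against 12030, 12408, 23614 and 10507, with a log2 fold change of 0.36.

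For genes of glucose uptake and of the response to low oxygen the number called depended on the setting. Of 16 genes, 4 rose and 0 fell, with a list median of 0.79, while 16 had an unadjusted p under 0.05. DESeq2 called 8, and edgeR called 13 of 16 without the filter on low counts, 11 of 16 under the study's limits on UMIs and genes, and 10 of 15 when each cell was reduced to 2000 UMIs. Slc2a1, the glucose transporter GLUT1, stood at 46.5, 192, 95.6 and 174 CPM in Mmp12 macrophages and at 29.9, 37.1, 20.7 and 60.7 CPM in Mmp12-low macrophages (log2 1.80 ± 0.26, edgeR adjusted p = 0.0158). Hilpda, an inducer of lipid droplets under hypoxia, stood at 65.4, 531, 179 and 464 CPM against 65.2, 89.9, 51.2 and 127 (log2 1.72 ± 0.35, edgeR adjusted p = 0.0490). Cre- replicate 1 was level between the states for Hilpda and the other mice were higher. Adm, a vasodilator peptide, rose by 2.61 with 0 UMIs in Mmp12 macrophages of Cre- replicate 1, and Ndrg1 by 1.47. Ankrd37, a hypoxia-inducible gene outside the list, stood at 15.0, 45.3, 29.0 and 62.1 CPM against 7.23, 11.0, 7.68 and 17.9 and rose by 1.84 (edgeR adjusted p = 0.00464). Gapdh, the most abundant member, stood at 1469, 3791, 1807 and 4439 CPM against 1767, 1866, 1171 and 2880 and did not pass. Without Cre- replicate 1, 15 of the 16 genes passed, and without Cre+ replicate 2, 0 did. Hmox1, which breaks down heme, rose in every mouse, at 1262, 466, 665 and 660 CPM against 651, 178, 203 and 352 (log2 1.30 ± 0.14, edgeR adjusted p = 0.00672). It was 1 of 9 iron and heme genes that passed, and the ferritin gene Fth1, at a log2 fold change of 0.68, did not (edgeR adjusted p = 0.0817).

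Resident macrophage genes that the rule did not use fell in Mmp12 macrophages, 5 of 9 tested and 0 rising, with a list median of -1.0. The rule capped 4 further genes of this type in both states. Maf, a transcription factor of resident macrophages, stood at 59.1, 78.2, 56.6 and 61.4 CPM against 202, 207, 144 and 189, without overlap (log2 -1.48 ± 0.11, edgeR adjusted p = 0.00165). Ccl8, a monocyte chemoattractant, stood at 75.7, 40.2, 45.1 and 28.9 CPM against 217, 189, 165 and 148 (log2 -1.95 ± 0.14, edgeR adjusted p = 0.00165). Cbr2 fell by 2.38, Gas6, a ligand of the receptors that take up dying cells, by 1.09, and Selenop, a selenium transport protein, by 0.97 on the log2 scale. Mrc1, the mannose receptor, did not pass (log2 -1.0, edgeR adjusted p = 0.122). C4b, which encodes complement component 4, stood at 10.2, 11.0, 21.5 and 11.2 CPM against 76.1, 64.7, 101 and 33.2 (log2 -2.07 ± 0.20, edgeR adjusted p = 0.00464). It was the 1 gene that fell among 11 complement genes, and Itgax, the integrin CD11c, was the 1 that rose (log2 0.74, edgeR adjusted p = 0.00928). Rapsn, which clusters receptors at the neuromuscular junction, fell by 1.63, Igfbp4, an insulin-like growth factor binding protein, by 1.60, Npl, a sialic acid lyase, by 1.33, and Fcrls, an Fc receptor-like gene of mouse macrophages, by 1.28.

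Acta2 and Igfbp5 were also among the 10 genes with the lowest fold changes, and their calls moved with transcripts of other cell types. Both are abundant in stromal cells. Acta2, smooth muscle actin, stood at 0.788, 5.85, 2.69 and 27.3 CPM against 8.75, 35.0, 6.53 and 77.1 (log2 -1.72, edgeR adjusted p = 0.0127), and Igfbp5 fell by 1.31 (edgeR adjusted p = 0.00556). The 6 fibroblast markers summed to 47.3, 110, 87.5 and 117 CPM in Mmp12 macrophages and to 312, 899, 1332 and 71.3 CPM in Mmp12-low macrophages, with Col3a1 the most abundant. Of these 6, 0 passed by edgeR or DESeq2, with 4 at an unadjusted p under 0.05. Without Cre+ replicate 4, 5 of 5 tested fell with a median of -3.32, and 4 of 6 fell with no filter on low counts and 3 of 5 under the study's limits on UMIs and genes. Their sum was lower in Mmp12 macrophages of 3 mice and higher in those of Cre+ replicate 4. In an alternative added after the data were seen, cells in which 10 marker genes of fibroblasts, neutrophils, lymphocytes and endothelium summed to 2 or more per 10000 UMIs were left out. There, Acta2 had a log2 fold change of 0.41 and Igfbp5 of 0.010, and neither passed. The other 18 of the 20 genes chosen by fold change kept their calls, and 314 genes passed in all, 237 of them among the 261. Ly6a and Timp1 did not pass in that setting.

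Markers of other cell types were summed in the same way. Summed T and NK cell markers stood at 14.2, 8.04, 6.06 and 9.66 CPM in Mmp12 macrophages against 25.8, 10.6, 13.3 and 109, with Gzma at 95.9 CPM in Mmp12-low macrophages of Cre+ replicate 4 and at 0 UMIs in 3 of the Mmp12 sums. Cd79b, a B cell gene, fell by 1.94 and stood between 1.49 and 4.73 CPM in Mmp12 macrophages, while Cd79a had 0 UMIs in Mmp12 macrophages. The 11 epithelial markers summed to 189, 157, 180 and 123 CPM against 170, 248, 257 and 125. Csn3 made up 84.2, 120, 147 and 29.3 CPM of the sums in Mmp12-low macrophages. Of 7 epithelial markers tested, 0 passed by edgeR or DESeq2, with 0 at an unadjusted p under 0.05. The 7 dendritic cell markers summed to 3.94, 35.8, 27.6 and 3.99 CPM against 5.98, 14.8, 12.1 and 5.76, almost all from Cd209a in Cre- replicate 3 and Cre+ replicate 2. Cd209a, the 1 dendritic cell marker tested, had a log2 fold change of 1.96 and did not pass by edgeR. It was higher and passed in 3 of 12 alternative settings that tested it, DESeq2 among them. Ccr7 had 0 UMIs in Mmp12 macrophages. The 4 endothelial markers summed to at most 11.0 CPM in Mmp12 macrophages and to at most 23.6 in Mmp12-low macrophages. The 6 neutrophil markers summed to 26.0, 15.3, 32.3 and 89.9 CPM against 233, 66.4, 40.9 and 29.4. Of 4 neutrophil markers tested, 0 passed by edgeR and 1 fell by DESeq2, and 2 of 3 fell without Cre+ replicate 4. The part of these transcripts in the called genes was not tested beyond the alternative above.

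Several lists held 0 called genes. Of 13 cell cycle genes, 0 passed by edgeR or DESeq2 and 0 had an unadjusted p under 0.05, with a median of -0.08, and Top2a, a marker of dividing cells, stood at 143, 11.0, 76.8 and 103 CPM against 79.5, 102, 46.3 and 121. The same 0 held for 10 type I interferon-stimulated genes, and their median of 0.55 was -0.13 without Cre- replicate 3. Under the study's limits on UMIs and genes it was 0.07, with 1 gene passing. Rsad2, an antiviral gene of that list, stood at 20.5, 444, 30.3 and 288 CPM against 64.2, 28.9, 25.0 and 176, so it was lower in Mmp12 macrophages of Cre- replicate 1 and far higher in those of Cre- replicate 3. Of 12 genes that dissociation of tissue induces, 0 passed by edgeR and 2 by DESeq2, with 4 at an unadjusted p under 0.05 and a median of 0.17. Under the study's limits on UMIs and genes, and likewise after thinning to 2000 UMIs, 3 of these genes rose and 1 fell by edgeR. Of 6 genes of colony-stimulating factors and their receptors, 1 passed, namely Csf2rb2, a beta receptor subunit of the interleukin 3 family (log2 0.93, edgeR adjusted p = 0.0176). Scd2, a fatty acid desaturase, was the 1 of 12 cholesterol and lipid synthesis genes that passed, and Bhlhe40 and Pparg were the 2 of 18 transcription factors. Aif1 was the 1 of 8 general macrophage genes that passed, and fell by 0.62, and Ly6a the 1 of 10 monocyte genes, and fell by 0.99. Under the study's limits on UMIs and genes, 4 of 8 general macrophage genes fell and 1 rose, and 3 of 10 monocyte genes fell. Without the filter on low counts 3 of 8 and 4 of 11 fell. With at least 10000 UMIs per barcode 1 of 8 and 0 of 10 fell. Ly6a passed in 6 of the 14 alternative settings, over which its log2 fold change went from -1.48 to -0.45.

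The list counts moved with single mice, given here for replicates 1, 3, 2 and 4 left out in turn. Protease genes that rose numbered 5, 3, 1 and 4, and those that fell 0, 0, 0 and 2. Lipid-associated genes that rose numbered 8, 2, 2 and 4, with 0 falling each time. Cytokine and chemokine genes that rose numbered 5, 2, 3 and 6, and 2 fell without Cre- replicate 3 but 0 without any other mouse. Glycolysis and hypoxia genes that rose numbered 15, 1, 0 and 2, and lysosomal genes 4, 0, 0 and 0, with 0 falling in either list. Resident macrophage genes that fell numbered 4, 4, 3 and 6, and 1 rose without Cre- replicate 1 but 0 without any other mouse.

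**Figure D3:**
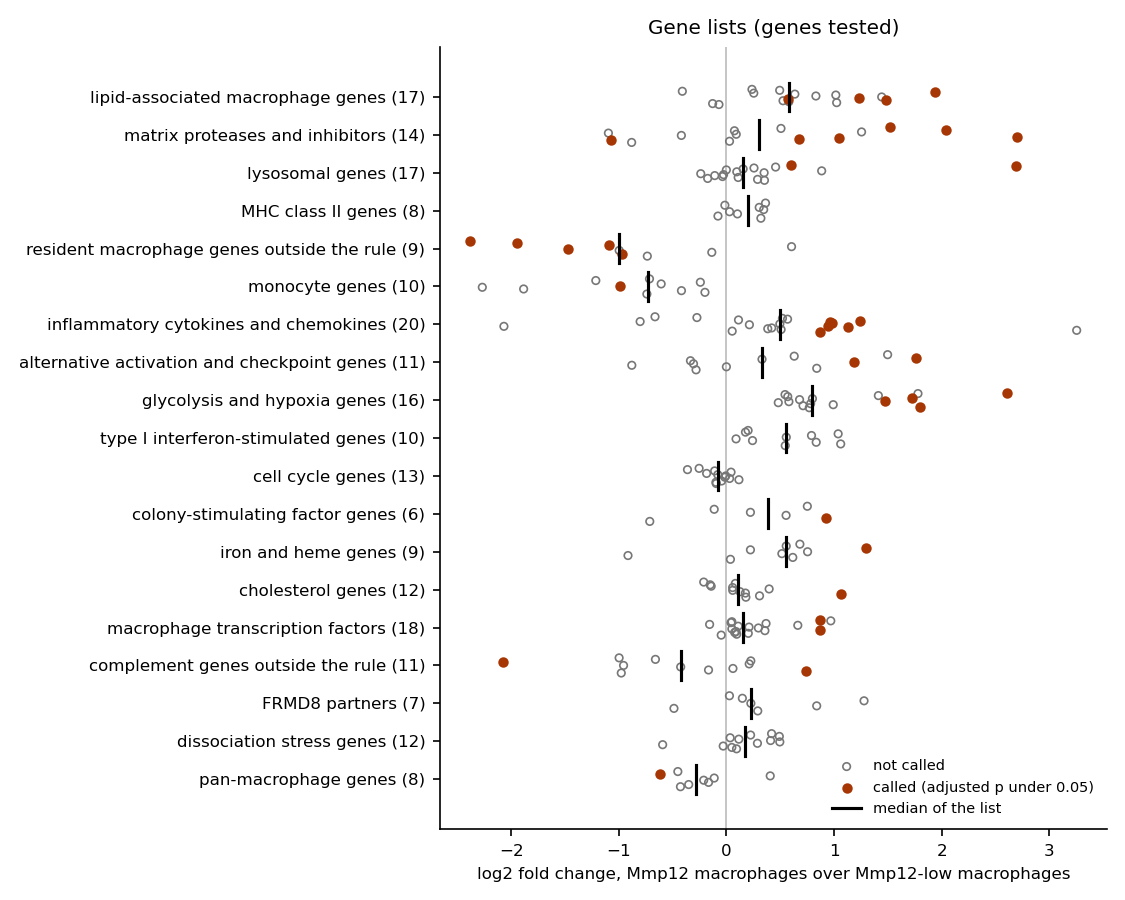
Log2 fold change (x axis) of each tested gene in 19 lists (y axis, number of genes tested in parentheses), with filled points for called genes and bars for list medians. Called genes lie to the right in the lipid, cytokine and glycolysis lists, and in the protease list except Timp1, and to the left in the resident macrophage list, whose median is -1.0.

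Gated macrophages were grouped by their Mmp12 level to describe other genes across it. For Dcstamp the mean over 4 mice went from 11.0 CPM ± 3.67 (SD, n = 4) below 1 Mmp12 UMI per 10000 to 36.5 ± 4.40 at 1 to 5 and 121 ± 49.3 at 20 or more, with 45.5 ± 24.9 at 10 to 20 below the 56.2 ± 15.6 at 5 to 10. Il7r went from 33.9 ± 11.0 through 55.7 ± 15.1 and 74.1 ± 21.0 to 137 ± 74.6 and 265 ± 151 CPM. Mmp13 stood at 48.5 ± 16.5 CPM below 1, at 102 ± 47.3 at 1 to 5 and at the lower 78.0 ± 38.5 at 5 to 10. It stood at 192 ± 58.3 CPM at 10 to 20 and at 312 ± 221 at 20 or more. Maf stood at 186 ± 29.0 CPM in the lowest class, at 81.0 ± 4.89 at 1 to 5, at 79.1 ± 9.18 at 5 to 10 and at 50.6 ± 21.2 in the highest. Trem2 did not follow the classes, with 578 ± 113 CPM in the lowest, 414 ± 127 at 5 to 10 and 640 ± 190 in the highest. The classes are ordered by the gene of the rule and hold as few as 15 cells in a mouse, so these levels are given without a test.

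**Figure D4:**
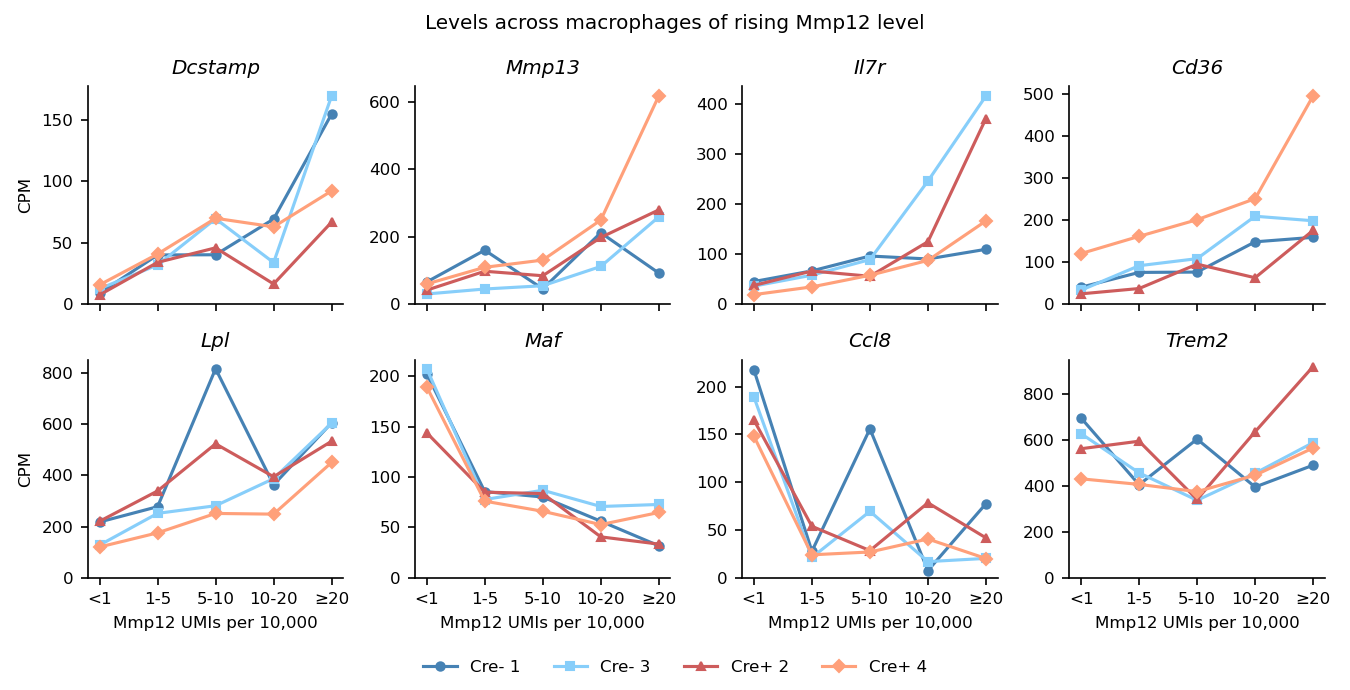
CPM (y axis) of 8 genes in gated macrophages grouped by Mmp12 UMIs per 10000 (x axis), with 1 line per mouse. Dcstamp, Il7r and Cd36 are highest and Maf is lowest, on average, in the class of 20 or more, and Trem2 shows no steady order.

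Each of these transcripts was seen in a part of the cells. A Dcstamp UMI was found in 30.3%, 38.1%, 30.7% and 42.9% of Mmp12 macrophages and in 4.77%, 7.63%, 5.15% and 11.8% of Mmp12-low macrophages. At an equal depth of 2000 UMIs the expected shares were 11.9%, 13.2%, 10.2% and 12.1% against 1.29%, 1.74%, 1.06% and 2.42%, and at most 0.386% of T cells and 0.0644% of epithelial cells. For Mmp13 the equal-depth shares were 17.0%, 14.9%, 16.3% and 27.8% against 6.10%, 3.11%, 5.03% and 7.03%, and at most 0.444% of T cells. For Lpl they were 36.3%, 31.1%, 34.3% and 31.8% against 18.6%, 15.2%, 20.5% and 16.1%, and at most 0.768% of T cells. Cd36 was found in 36.9% of Mmp12 macrophages of Cre+ replicate 4 and in 12.9% to 22.9% in the other mice, against 17.2% and 3.51% to 6.18% of Mmp12-low macrophages and at most 0.334% of T cells. Trem2 was found in 41.0% to 48.0% of Mmp12 and 49.0% to 56.5% of Mmp12-low macrophages, and in at most 1.27% of T cells. The 10% of Mmp12 macrophages with the most Mmp13 UMIs held 74.2%, 68.8%, 71.5% and 64.3% of all of them, against 63.2%, 60.2%, 62.3% and 51.8% for Lpl. Atp6v0d2 was concentrated in fewer cells, with 5.62% to 12.7% of Mmp12 macrophages holding a UMI without thinning.

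**Figure D5:**
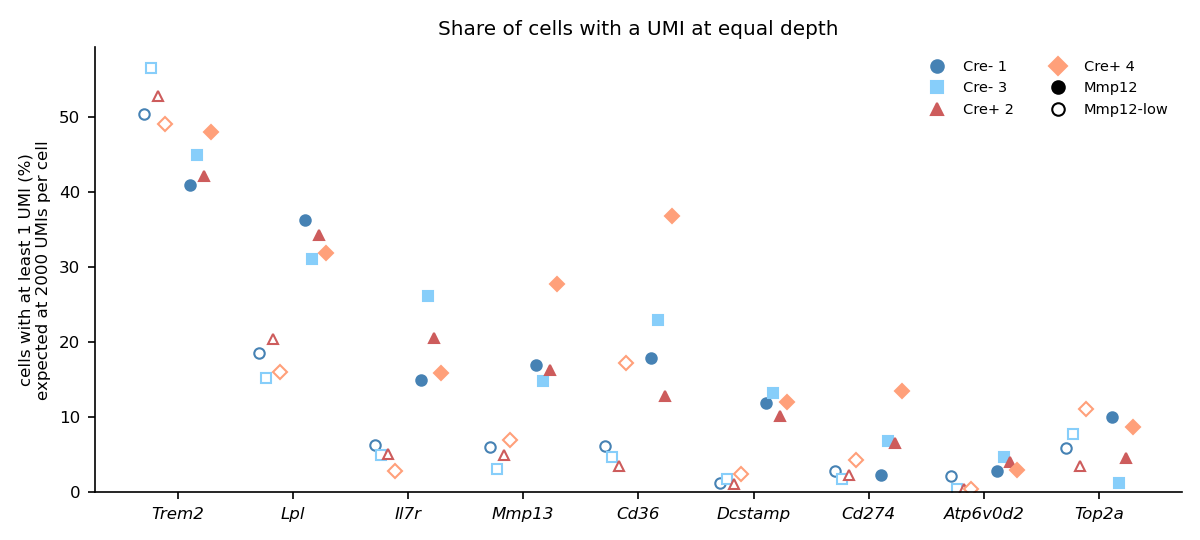
Percent of cells expected to hold at least 1 UMI of a gene when each cell is reduced to 2000 UMIs (y axis), for 9 genes (x axis), with filled symbols for Mmp12 and open symbols for Mmp12-low macrophages of each mouse. For Lpl, Il7r, Mmp13 and Dcstamp every filled symbol lies above every open one, and for Trem2 the filled symbols lie below the open ones.

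The windows of the called genes were searched for 4 motifs, each on both strands. Of the 178 genes that rose, 134 had a RefSeq window among those searched, 177 windows in all, and TGANTCA was found in 21 of them (11.9%). It was found in 4.71% of the 85 windows of the genes that fell. The share was 4.50% in the windows searched for all genes tested and 6.75% in all windows searched. Besides Mmp13 and Il1rn, genes that rose with such a window included Il1a, Plaur, Itgax, Ccl9, Hilpda and Tnfrsf9. The C/EBP motif TTGCNNAA was found in 9.04% of windows of the genes that rose, 10.6% of those that fell and 7.77% of those tested. The PU.1 motif GAGGAAGT was found in 5.08%, 2.35% and 2.73%, and the hypoxia response core ACGTG in 21.5%, 15.3% and 22.0%. A gene may have several overlapping windows, near-identical copies such as Bcl2a1a, Bcl2a1b and Bcl2a1d each counted, and a match is a description of the sequence only.

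The second comparison set the cells against resident-like macrophages, the 1364 cells with at least 5 UMIs per 10000 of Folr2, Cd163, Lyve1 and F13a1 together and Mmp12 below 1. It uses the same Mmp12 sums, so its calls are given for themselves. Of 9961 genes tested, 2855 (28.7%) passed, 1486 (14.9%) higher and 1369 (13.7%) lower in Mmp12 macrophages, and 1438 of 4970 passed when each cell was reduced to 2000 UMIs. For genes near 0 in one state the fitted fold rests on few UMIs, so levels are given instead. Dcstamp stood at 0.132 to 0.907 CPM in resident-like macrophages. H2-M2, an MHC class I-like gene, stood at 0 to 0.396 CPM there against 10.9 to 162 in Mmp12 macrophages, and Klrb1b, a lectin-like receptor, at 0.623 to 2.29 against 48.4 to 76.7 CPM. Il1r2, the decoy receptor for interleukin 1, stood at 1.98 to 6.55 CPM in resident-like and at 56.8 to 124 CPM in Mmp12 macrophages. Cxcl13, the B cell attractant, stood at 100, 68.2, 281 and 150 CPM in resident-like macrophages and held 1 UMI in all Mmp12 sums together. The lectin gene Cd209f stood at 105 to 722 CPM in resident-like macrophages and held 0, 1, 6 and 2 UMIs in Mmp12 macrophages. The calcineurin-like gene Chp2 stood at 34.3 to 102 CPM and held 0, 0, 1 and 1 UMIs. Ccl6 was higher in Mmp12 than in Mmp12-low macrophages but lower than in resident-like macrophages, which held 2450, 3294, 4317 and 2200 CPM against 767, 731, 1421 and 393, and Ccl9 did likewise. Hmox1 stood at 839, 797, 718 and 1696 CPM in resident-like macrophages and did not pass there (edgeR adjusted p = 0.595).

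The third comparison concerned the genotype within Mmp12 macrophages. Frmd8, the gene deleted in epithelium, stood at 34.7 and 16.8 CPM in Cre- and at 22.9 and 13.5 CPM in Cre+ mice, on 44, 23, 34 and 145 UMIs. The genotypes overlapped, and the log2 fold change was -0.49 ± 0.40 (edgeR, unadjusted p = 0.262). In Mmp12-low macrophages Frmd8 stood at 25.3 and 23.3 CPM in Cre- and at 15.0 and 13.1 CPM in Cre+ mice, without overlap, and this difference was not tested. Resident-like macrophages held 23.7 and 24.9 CPM in Cre- and 23.6 and 19.0 CPM in Cre+ mice. The UMIs were counted per gene and do not show which exons they came from, so the level does not check the deletion. Between the states, Frmd8 did not pass (log2 0.23, edgeR adjusted p = 0.607), and 0 of 7 tested genes of its partners passed by edgeR or DESeq2, with 3 at an unadjusted p under 0.05. Adam17, which sheds tumor necrosis factor and is stabilized through FRMD8, stood at 132, 103, 118 and 91.7 CPM, and Rhbdf2, the iRhom of macrophages, at 33.1, 32.9, 26.9 and 37.6 CPM in Mmp12 macrophages.

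Of 8354 genes tested, 0 (0%) passed between Cre+ and Cre- Mmp12 macrophages by edgeR, with 136 at an unadjusted p under 0.05 and 4 passing by DESeq2. In simulated data, 6.12% of genes changed by a log2 fold change of 1 were found by this test. The interaction test used next found 1% of such genes. Low counts of called genes therefore do not show that the genotypes were alike. Ly6a, a surface antigen induced by interferon and named after its values were seen, stood at 22.9 and 35.8 CPM in Cre- and at 112 and 178 CPM in Cre+ mice. The genotypes did not overlap, with a log2 fold change of 2.38 (edgeR, unadjusted p = 0.000206). By Mmp12 level, Cre+ replicate 2 held 4.73 CPM of Ly6a at 5 to 10 UMIs per 10000. It held 392 CPM in the 20 cells at 10 to 20, and 39.6 CPM at 20 or more. Cre+ replicate 4 held 184, 158 and 192 CPM in the same classes. The level in Cre+ replicate 2 thus leaned on few cells. In Mmp12-low macrophages Ly6a stood at 75.7 and 106 CPM in Cre- and at 140 and 353 CPM in Cre+ mice, also without overlap. Whether the difference between the states depended on the genotype was tested with an interaction term. It passed for 1 of 11324 genes (0.00883%), the neutrophil gene S100a8 (edgeR adjusted p = 0.0171), with 286 at an unadjusted p under 0.05. It did not pass, and 0 genes did, with at least 10000 UMIs per barcode, with called cells only in Cre+ replicate 4, or without the cells holding other cell type markers, of which S100a8 is 1.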

How the data were processed

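UMI counts per gene and barcode were deposited by the authors as Cell Ranger matrices, 1 per mouse (per the file headers, version 6.1.2 for replicates 1, 2 and 3 and 4 for replicate 4), as raw counts without normalization. The labels name a human build while the 32285 features carry mouse identifiers, so the mouse build is not given in the sources used here, and no coordinate was taken from these files. Promoter windows came from RefSeq on GRCm38.p6, matched by symbol, and windows on a part of the genome were left out of the search. The files held no fold changes or p-values.

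Cells were chosen by the limits given at the opening. Members and gene lists were chosen with earlier results of these data known. No doublet caller was run, and doublets were limited only by the rule's caps on other cell types and by the alternative on other cell type markers, which was chosen after seeing the data. Raw counts were summed per mouse and state and compared with edgeR 4.0.16 (TMM, filterByExpr, quasi-likelihood test, Benjamini-Hochberg over all genes tested, threshold 0.05), with the mouse as a block where both states came from the same mice. Cells are not replicates, so p-values measure the spread between mice. The 12 genes of the rule and 13 mitochondrial genes stayed in library sizes and out of tests. CPM values are UMIs of a gene per 1000000 UMIs of its sum. As all libraries are 3' tag counts, levels were not divided by gene length.

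Named genes were Mmp12, Trem2, C1qa and Frmd8, the 10 highest and 10 lowest fold changes among called genes of at least 20 CPM with 1 direction in 4 mice, the 3 most abundant and up to 2 most changed members of each of 26 lists (288 genes, of which 285 matched 1 feature), and up to 5 called genes each way in the other comparisons. The text describes a part of these, and other names were chosen after their values were seen. The result of 1 gene is not reported here. Alternatives were DESeq2 1.42.0, no filter on low counts, no block, each mouse left out, other limits on depth, mitochondrial share and Mmp12, the limits the study gives on UMIs and genes (read here as upper limits on UMIs), called cells only in Cre+ replicate 4, and cells thinned to 2000 UMIs. The fits were tested on simulated data whose spread was set and not taken from these mice. Genes changed by a log2 fold change of 1 were recovered at 50% between the states and at 56.6% against resident-like macrophages. For the genotype it was 6.12% and for the interaction 1%. At a log2 fold change of 2 the shares were 94.8%, 98.0%, 91.3% and 27.8%, in the same order. R 4.3.3, limma 3.58.1, Python 3.11.15, numpy 2.4.6, pandas 2.3.3, scipy 1.17.1 and matplotlib 3.10.9 were used.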

Additional observations from a re-analysis of the deposited data

Results flagged for a closer look

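S100a8, a calcium-binding protein gene of neutrophils, passed the test of whether the difference between the states depended on the genotype, with an interaction of 5.49 on the log2 scale (edgeR adjusted p = 0.0171). The call was lost, with 0 genes passing, with at least 10000 UMIs per barcode, with called cells only in Cre+ replicate 4, and without cells holding other cell type markers, a setting that leaves out cells by S100a8 itself among others. S100a8 stood at 4.73 and 1.46 CPM in Mmp12 macrophages of Cre- mice and at 12.1 and 29.4 CPM in those of Cre+ mice, resting on 6, 2, 18 and 317 UMIs. In Mmp12-low macrophages it stood at 52.2 and 17.1 CPM in Cre- and at 2.88 and 7.56 CPM in Cre+ mice. The log2 ratio of the states, with 1 CPM added, was -3.22 and -2.88 in Cre- and 1.76 and 1.83 in Cre+ mice, a difference of 4.84 between the mean ratios of the genotypes. The 6 neutrophil markers together stood at 26.0, 15.3, 32.3 and 89.9 CPM in Mmp12 macrophages against 233, 66.4, 40.9 and 29.4 CPM in Mmp12-low macrophages.

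Trem2 also had ratios of opposite sign in the genotypes, at log2 values of -0.504 and -0.467 in Cre- and 0.0983 and 0.0937 in Cre+ mice, on levels of 453 to 601 CPM in Mmp12 macrophages. The mean ratios differed by 0.582, and the interaction term of 0.57 did not pass (edgeR adjusted p = 1).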

How the results depend on the processing

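The mouse block pairs both states of the same mouse. With no replicate block, 15 genes passed between Mmp12 and Mmp12-low macrophages against 261 with it. That count was 460 with DESeq2, 655 with every gene of at least 1 UMI and 590 under the limits of 30000 UMIs and 200 to 5000 genes, and leaving out 1 mouse gave 42 (without Cre+ replicate 2) to 291 (without Cre- replicate 1). Against resident-like macrophages, 1438 of 4970 genes tested passed in cells thinned to 2000 UMIs, in place of 2855 of 9961. Between genotypes, where edgeR passed 0 genes, DESeq2 passed 4, no filter on low counts 47, the upper limits 2 and thinning 1, and leaving out 1 mouse gave 8 (without Cre- replicate 3) to 51 (without Cre+ replicate 2). The interaction count of 1 was 6, 112, 7 and 5 under those settings in the same order, and 0 with at least 10000 UMIs per barcode, with called cells only in Cre+ replicate 4 or without cells holding other cell type markers, the last chosen after seeing the data. Leaving out 1 mouse gave 3 (without Cre+ replicate 4) to 51 (without Cre+ replicate 2). In both genotype tests this leaves 1 mouse in a genotype, which is assumed to vary like the other genotype's mice, so these counts say nothing of stability. The difference in share ranged from -2.44 to 17.0 percentage points when Cre+ replicate 4 or Cre+ replicate 2 was left out. No paired analysis was possible because the Cre- and Cre+ mice share no replicate number for the genotype comparisons.

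Of the 60 called genes named, 58 kept their sign in every alternative, Acta2 and Igfbp5 being the exceptions. Without cells holding other cell type markers, the log2 fold changes were 0.41 for Acta2, 0.010 for Igfbp5 and 0.17 for Col3a1. Among genes that had not passed, Frmd8 was at -0.38 after thinning, Top2a at 0.073 with at least 3 Mmp12 UMIs for members and 0 for comparison cells, and S100a8, at 0.10 between the states, at -0.59 with DESeq2, -0.27 with no replicate block, -0.90 after thinning and -0.017 under the stricter Mmp12 limits. Leaving out 1 mouse moved Top2a from -0.45 to 0.44, S100a8 from -1.37 to 1.02 and Mmp14 from -0.059 to 0.14. Apart from the left-out cells, mice and genes that define each setting, the cause was not tested. The Cre- libraries and Cre+ replicate 2 gave 63 to 89 Mmp12 macrophages each, so genes near the filter rested on few UMIs there.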

Other observations

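The 8 genes described here were in no list and were chosen after their values were seen, so they stand for themselves and not for a group. Slc7a11, the cystine importer that feeds glutathione synthesis, stood at 40.2, 89.9, 97.6 and 98.6 CPM against 26.4, 39.2, 24.9 and 35.5 (log2 1.43 ± 0.19 SE, edgeR adjusted p = 0.0120). Srxn1, which repairs oxidized peroxiredoxins, stood at 78.0, 51.1, 47.1 and 46.4 CPM against 29.9, 27.0, 30.4 and 17.6 (log2 1.17, edgeR adjusted p = 0.00928). Mt2, a metallothionein that binds zinc and copper, rose by 1.37 and stood between 110 and 310 CPM. Trib3, a pseudokinase gene induced by amino acid shortage, rose by 2.27 on 9 to 65 UMIs per mouse. All 4 were higher in 4 of 4 mice.

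Among the genes that fell was Cx3cr1, the fractalkine receptor of monocytes and tissue macrophages, at 330, 252, 414 and 322 CPM against 531, 601, 675 and 521 (log2 -0.77 ± 0.10 SE, edgeR adjusted p = 0.0127). P2ry12, a nucleotide receptor best known from microglia, fell by 0.99 and Cd93, a C-type lectin-like receptor, by 1.26 on the log2 scale, each in 4 of 4 mice. Mgl2, a lectin gene common in dendritic cells and alternatively activated macrophages, rose instead, at 74.9, 187, 152 and 69.7 CPM against 23.5, 56.3, 47.2 and 37.7 (log2 1.54 ± 0.16, edgeR adjusted p = 0.00506). The 2 mice with the highest Mgl2 in Mmp12 macrophages, Cre- replicate 3 and Cre+ replicate 2, were also those with the dendritic cell marker Cd209a, and its part in the Mgl2 level was not tested. None of these 8 genes passed without the mouse block.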
